A study of Homo sapiens with 12 samples.

Results

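Metallothioneins and the zinc response were followed through 8 genes of 58735 in the deposited table, chosen by gene symbol: MT2A, MT1E, MT1F, MT1G, MT1M and MT1X, the zinc exporter SLC30A1 and the zinc sensor MTF1. All 8 were present in the table, and 6 had a mean of at least 1 FPKM (fragments scaled by gene length and by library) over the libraries and were tested. MT1G and MT1M were below that level and were not tested. The material was TFK1, an established human cholangiocarcinoma cell line, in 4 groups of 3 libraries, each labelled a biological replicate. The groups were the combination of radiation (6 Gy) with nab-paclitaxel (1.62 ng/ml), nab-paclitaxel alone at 1.62 ng/ml, radiation alone at 6 Gy, and an untreated control. RNA was taken 24 h after treatment in all of them. Nab-paclitaxel is albumin-bound paclitaxel, a drug that stabilises microtubules, and the comparison asks how it changes the response of these cells to radiation. No label says whether the replicates were separate cultures grown on separate days, so p-values measure the spread between these libraries, all from 1 cell line.

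Metallothioneins are small cysteine-rich proteins that bind zinc and copper ions and also react with oxidants. Their genes lie side by side on chromosome 16, and zinc, other metals, oxidants and glucocorticoids are known to raise their transcription. MTF1 is the transcription factor that senses free zinc and binds short metal response elements in the promoters of metallothionein genes and of SLC30A1, whose protein carries zinc out of the cell. In mice MTF-1 is also known to repress the zinc importer gene Slc39a10.

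The metallothionein genes are close copies of each other, which limits how exactly fragments can be assigned to each. The coding sequences of the 6 members were all 186 bases long. MT1X differed from MT1E at 17 of these bases (90.9% identity) and MT2A at 14 (92.5% identity). The 3 most abundant members are shown because the results below turn on how they parted from each other. They were read from the hg38 genome along GENCODE gene models, on the + strand, and span chr16:56625852-56626971 (MT1E), chr16:56682541-56684049 (MT1X) and chr16:56608656-56609354 (MT2A), introns left out. Capitals mark the bases of MT1X and MT2A that differ from MT1E.
MT1E: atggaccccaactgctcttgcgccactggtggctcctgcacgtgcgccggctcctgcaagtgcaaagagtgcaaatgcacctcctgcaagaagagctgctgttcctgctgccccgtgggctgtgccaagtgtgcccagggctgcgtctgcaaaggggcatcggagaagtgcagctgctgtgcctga
MT1X: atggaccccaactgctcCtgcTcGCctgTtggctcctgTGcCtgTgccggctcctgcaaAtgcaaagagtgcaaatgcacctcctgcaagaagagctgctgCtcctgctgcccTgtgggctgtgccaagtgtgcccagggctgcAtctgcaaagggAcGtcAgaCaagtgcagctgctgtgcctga
MT2A: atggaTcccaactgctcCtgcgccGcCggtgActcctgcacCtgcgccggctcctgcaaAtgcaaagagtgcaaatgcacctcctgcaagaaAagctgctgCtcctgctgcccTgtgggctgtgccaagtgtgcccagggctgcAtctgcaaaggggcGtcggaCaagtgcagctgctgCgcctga
Over whole transcripts the copies were easier to tell apart. Windows were pooled over all transcripts of a gene and matched exactly, so shares within the main transcript alone can differ. Of the 50-base windows, 7.10% in MT1E, 3.02% in MT2A, 1.22% in MT1F and 18.3% in MT1X also occurred in another gene, and none in SLC30A1. For MT1G and MT1M the shares were 16.5% and 9.87%. At 100 bases the shared windows fell to 0 for MT1E, MT2A, MT1F, MT1G and MT1M, and to 11.3% for MT1X. For MT1X those windows were shared with AC026461.1, a transcript overlapping it on the same strand that was listed at 0 FPKM in every library. Read length and the treatment of reads with several matches are not stated in the labels, so values of single metallothionein genes are uncertain to that extent.

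The promoters of MT2A, MT1X and SLC30A1 are shown because they hold matches to the core of the metal response element. RefSeq promoter sequence of the GRCh38.p14 assembly was at hand for 4 of the 8 members (MT2A, MT1X, SLC30A1 and MTF1). The metal response element core was searched as TGCACNC or TGCGCNC on both strands in the 250 bases before the start, and capitals mark the matches, none of which overlap. MT2A (chr16:56608334-56608583, + strand) held 7 matches and MT1X (chr16:56682220-56682469, + strand) held 4. SLC30A1 (chr1:211579162-211579411, - strand) held 1, and MTF1 none. The starts are those of RefSeq and differ from the deposited gene models, where MT2A begins at chr16:56608199 and SLC30A1 at chr1:211578742. Sequence around that deposited SLC30A1 start was not searched.
MT2A promoter: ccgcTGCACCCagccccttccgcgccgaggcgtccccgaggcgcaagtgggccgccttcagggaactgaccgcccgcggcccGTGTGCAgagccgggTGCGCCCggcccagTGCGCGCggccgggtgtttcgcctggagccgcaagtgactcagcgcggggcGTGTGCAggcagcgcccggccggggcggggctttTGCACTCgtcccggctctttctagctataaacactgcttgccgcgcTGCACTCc
MT1X promoter: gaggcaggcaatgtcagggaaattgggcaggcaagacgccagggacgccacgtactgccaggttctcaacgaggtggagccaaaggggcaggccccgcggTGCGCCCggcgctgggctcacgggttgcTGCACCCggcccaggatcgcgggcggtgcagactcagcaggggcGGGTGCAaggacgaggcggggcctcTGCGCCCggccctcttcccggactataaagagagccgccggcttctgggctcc
SLC30A1 promoter: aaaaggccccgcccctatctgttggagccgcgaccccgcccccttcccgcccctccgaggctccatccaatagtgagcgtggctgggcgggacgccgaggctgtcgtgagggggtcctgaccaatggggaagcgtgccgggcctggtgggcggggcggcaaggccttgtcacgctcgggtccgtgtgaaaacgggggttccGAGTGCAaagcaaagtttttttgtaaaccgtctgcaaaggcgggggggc
Of 35116 promoters of the same length, 24.8% held at least 1 match, 0.370% at least 4 and 0.0313% at least 7. A match describes the letters only.

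Recovered fragments ranged over 14840283 to 17992242 per library. Mitochondrial mRNAs took 9.23% to 13.6% of them. Of 9 biliary epithelial markers 5 had a mean of at least 1 FPKM, led by KRT19 at 419 FPKM and with EPCAM and SOX9 among them, while KRT7, CFTR and MUC1 were among those below 1. None of 8 macrophage and none of 8 lymphocyte and endothelial markers reached 1 FPKM, and 2 of 8 fibroblast markers did. The summed biliary markers were higher in every treated group, at 1309 to 1665 FPKM in the combination, 1141 to 1292 in nab-paclitaxel, 1061 to 1138 in radiation and 671 to 855 in control, and their part in the results below was not tested. Libraries control 2, nab-paclitaxel 1 and combination 2 deviated from their group means in a shared direction across genes (r = 0.463, 0.543 and 0.332 for their 3 pairs), so calls that depend on them are given with and without them.

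MT2A was the most abundant member on this per-length scale, followed by MT1E, then MT1X and SLC30A1, then MTF1 and MT1F. Over all 12 libraries MT2A averaged 541 FPKM and MT1E 217 FPKM, and no library of MT1E reached the lowest MT2A level of 438 FPKM. MT1X (mean 23.5 FPKM) and SLC30A1 (mean 17.8 FPKM) overlapped in their ranges over all libraries. Within the combination MT1X (26.8 to 32.8 FPKM) lay above SLC30A1 (14.0 to 17.8 FPKM), while in each other group they overlapped. No test compared these genes with each other. MTF1 (3.89 to 5.48 FPKM) lay just above MT1F (2.14 to 3.87 FPKM). The deposited gene lengths exceed those of the main transcripts (1773 deposited against 450 bases for MT1X, 1299 deposited against 786 for MT2A), so FPKM understates these genes' levels to different degrees.

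**Figure D1:**
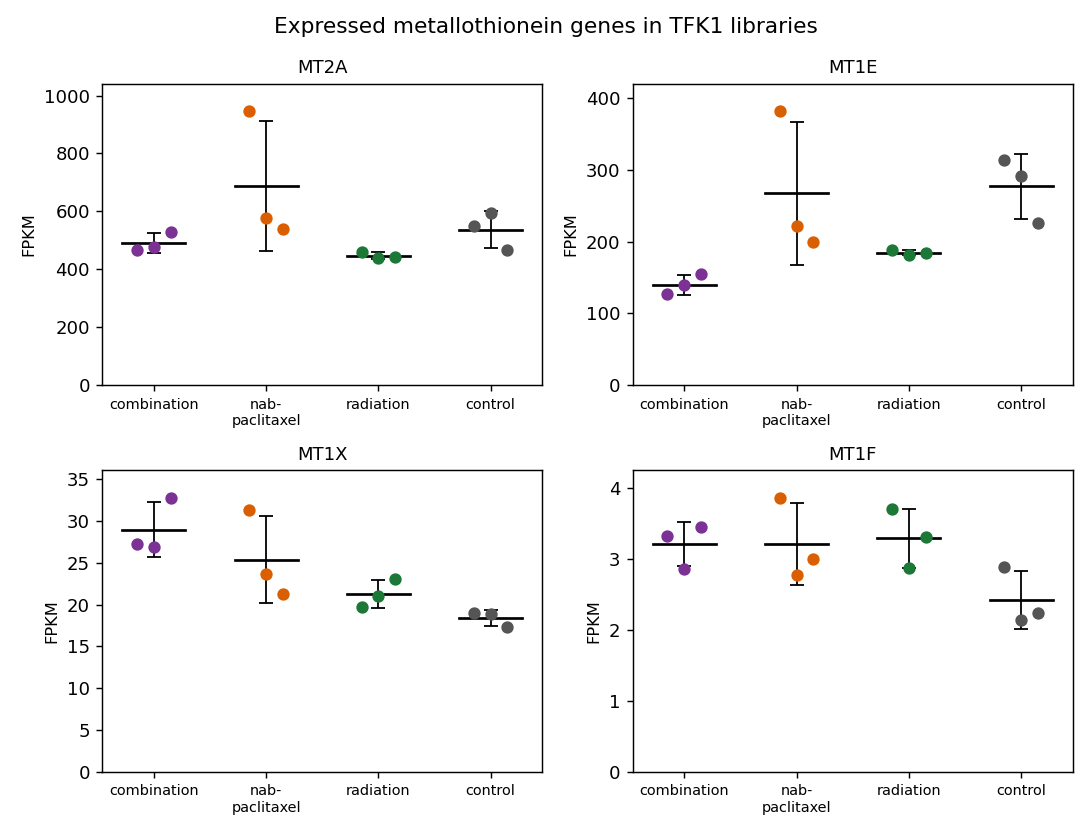
FPKM of MT2A, MT1E, MT1X and MT1F (y axes, each from 0) in the 3 libraries of combination, nab-paclitaxel, radiation and control (x axis). Points are libraries, wide lines group means and bars SD (n = 3). MT1E lay at 127 to 155 FPKM in the combination and at 226 to 313 FPKM in control, while MT1X lay at 26.8 to 32.8 FPKM in the combination and at 17.3 to 19.0 FPKM in control.

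MT1E and MT1X moved in opposite directions under the combined treatment. A gene was said to rise or fall where limma on log2(FPKM + 1) gave a Benjamini-Hochberg adjusted p under 0.05 over 13609 genes, and ± after a log2 fold change is its SE. In combination against control 2 of the 6 tested members passed, 1 in each direction, in a comparison in which 22.9% of all genes passed. The median log2 fold change was -0.07 over the 6 members and 0.00 over all genes tested. A lower level in bulk RNA cannot separate fewer expressing cells from less RNA per cell.

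MT1E, one of the inducible metallothioneins, had 127, 139 and 155 FPKM in the combination, 382, 221 and 199 FPKM in nab-paclitaxel, 189, 181 and 185 FPKM in radiation, and 313, 292 and 226 FPKM in control (replicates 1, 2 and 3 throughout). Every combination library lay below every library of the other 3 groups, and every radiation library lay below every nab-paclitaxel and control library. MT1E fell in the combination, at 140.1 ± 13.9 FPKM against 277 ± 45.4 FPKM in control (SD, n = 3 each), a log2 fold change of -0.97 ± 0.21 with a limma adjusted p of 0.00689. All 23 alternatives kept that call, with log2 fold changes between -1.11 and -0.87.

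MT1X, another inducible metallothionein, had 27.3, 26.8 and 32.8 FPKM in the combination, 31.3, 23.7 and 21.2 FPKM in nab-paclitaxel, 19.8, 21.0 and 23.0 FPKM in radiation, and 19.0, 18.9 and 17.3 FPKM in control. Each treated library lay above each control library, and the combination also lay above radiation without overlap. MT1X rose in the combination, at 28.97 ± 3.30 FPKM against 18.4 ± 0.924 FPKM in control (SD, n = 3 each), a log2 fold change of 0.62 ± 0.13 with a limma adjusted p of 0.00648. All 23 alternatives kept that call too, with log2 fold changes between 0.53 and 0.69. MT1X is the metallothionein member that overlaps AC026461.1.

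MT2A, the most widely expressed human metallothionein gene, had 466, 478 and 529 FPKM in the combination, 946, 578 and 541 FPKM in nab-paclitaxel, 460, 438 and 442 FPKM in radiation, and 548, 595 and 467 FPKM in control. The combination and control overlapped, and nab-paclitaxel 1 stood far above the other 11 libraries. Its log2 fold change in combination against control was -0.12 ± 0.18 (95% interval -0.51 to 0.27, limma adjusted p = 0.661), which leaves room for changes in either direction.

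MT1F, a less abundant copy, had 3.32, 2.87 and 3.46 FPKM in the combination, 3.87, 2.78 and 3.00 FPKM in nab-paclitaxel, 3.70, 2.87 and 3.32 FPKM in radiation, and 2.89, 2.14 and 2.24 FPKM in control. The highest control library overlapped the lowest library of each treated group, and these levels rest on 62 to 118 fragments per library. The log2 fold change in combination against control was 0.30 ± 0.12 with a limma adjusted p of 0.102. With the replicate number as a block, MT1F rose with an adjusted p of 0.0428. That fit covered all 4 groups, while same-numbered libraries all deviated together only in combination and control. The pairing was itself seen in these data, so this call is uncertain.

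MT1G and MT1M, the remaining metallothionein members, were at or near 0. MT1G had 2 fragments in nab-paclitaxel 2 and MT1M 1 fragment in radiation 1, and both were listed at 0 in the other 11 libraries. A count of 0 allows up to 3 fragments, or 0.222 to 0.265 FPKM for MT1G and 0.177 to 0.211 FPKM for MT1M depending on the library, for counting error only. No comparison between groups was possible at this depth.

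With one agent alone no member passed the threshold. In nab-paclitaxel against control limma called 0 of 6 members, where 8.82% of all genes were called, with 2 members at an unadjusted p under 0.05 and 0 called by voom. The 2 were MT1X and MT1F. MT1X averaged 25.4 ± 5.24 FPKM in nab-paclitaxel and 18.4 ± 0.924 FPKM in control (SD, n = 3 each) without overlap, a log2 fold change of 0.43 ± 0.13 with a limma adjusted p of 0.0642, and it passed without nab-paclitaxel 3 (0.54, adjusted p 0.0368) or after rescaling to TPM (adjusted p 0.0461). MT2A averaged 688 ± 224 FPKM in nab-paclitaxel and 537 ± 64.7 FPKM in control (SD, n = 3 each). Its log2 fold change was 0.32 ± 0.18 with a limma adjusted p of 0.281, and 0.07 without nab-paclitaxel 1. MT1E had a log2 fold change of -0.10 ± 0.21 (limma adjusted p = 0.807), which became -0.38 with an adjusted p of 0.117 without nab-paclitaxel 1.

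In radiation against control limma called 0 of 6 members, where 5.93% of all genes were called, with 2 members at an unadjusted p under 0.05 (MT1E and MT1F) and 0 called by voom. MT1E averaged 184.7 ± 3.88 FPKM in radiation and 277 ± 45.4 FPKM in control (SD, n = 3 each), without overlap. The log2 fold change was -0.57 ± 0.21 and the limma adjusted p 0.145. Without nab-paclitaxel 1, which enters only through the shared spread, MT1E passed at the same fold change with an adjusted p of 0.0147. Without control 2, nab-paclitaxel 1 and combination 2 it passed at -0.53 with 0.0273, and SLC30A1 passed at 0.25 with 0.0110. Calls among all 13609 genes rose in these fits too. They went from 807 to 1305 without nab-paclitaxel 1, and to 2947 without control 2, nab-paclitaxel 1 and combination 2.

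Adding one agent to the other gave 1 call. In combination against nab-paclitaxel MT1E was the 1 member of 6 called, where 3.92% of all genes were called, with a log2 fold change of -0.87 ± 0.21 and a limma adjusted p of 0.0411. This call was lost, with adjusted p between 0.0528 and 0.130, when control 1, any radiation library, nab-paclitaxel 2 or any combination library was left out. It was also lost with only the 2 groups in the fit (0.161). Without nab-paclitaxel 1, the library with the highest MT1E level, it passed at a log2 fold change of -0.59 with an adjusted p of 0.0392. Without control 2, nab-paclitaxel 1 and combination 2 both MT1E and MT1X passed, MT1X at 0.40 with an adjusted p of 0.0491. In that fit 1301 of all 13609 genes were called instead of 533. MT2A did not overlap between these groups, and its log2 fold change was -0.44 ± 0.18 with a limma adjusted p of 0.221, and -0.19 without nab-paclitaxel 1.

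In combination against radiation limma called 0 of 6 members, where 7.75% of all genes were called, with 2 members at an unadjusted p under 0.05 (MT1X and SLC30A1) and 0 called by voom. MT1X, at 28.97 ± 3.30 FPKM in the combination and 21.3 ± 1.64 FPKM in radiation (SD, n = 3 each), had a log2 fold change of 0.43 ± 0.13 and a limma adjusted p of 0.0698. Without nab-paclitaxel 1, MT1X passed with an adjusted p of 0.0165 and MT1E passed at -0.40 with 0.0483. Without control 2, nab-paclitaxel 1 and combination 2, MT1X passed at 0.48 with 0.00852 and SLC30A1 at -0.43 with 0.00128. With only these 2 groups in the fit MT1E, MT1X and SLC30A1 all passed, with adjusted p of 0.0163, 0.0239 and 0.0428. Calls among all 13609 genes rose in each of these fits from the 1055 of the main fit. They reached 1879 without nab-paclitaxel 1, 4128 without control 2, nab-paclitaxel 1 and combination 2, and 2502 with only these 2 groups.

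The interaction asks whether the combination differs from the sum of the changes under each agent. Limma called 0 of 6 members and 0% of all genes, with 0 members and 443 genes at an unadjusted p under 0.05, and voom called 0 genes. For MT1X the separate log2 fold changes of 0.43 in nab-paclitaxel and 0.20 in radiation add to 0.62, beside 0.62 in the combination, and the interaction was 0.00 ± 0.19 with a 95% interval of -0.41 to 0.41. For MT1E the separate changes of -0.10 in nab-paclitaxel and -0.57 in radiation add to -0.67, beside -0.97 in the combination, and the interaction was -0.30 ± 0.29 with a 95% interval of -0.95 to 0.34. Without nab-paclitaxel 1 the interaction of MT1E was -0.02. These intervals are wide beside the changes under the single agents.

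**Figure D2:**
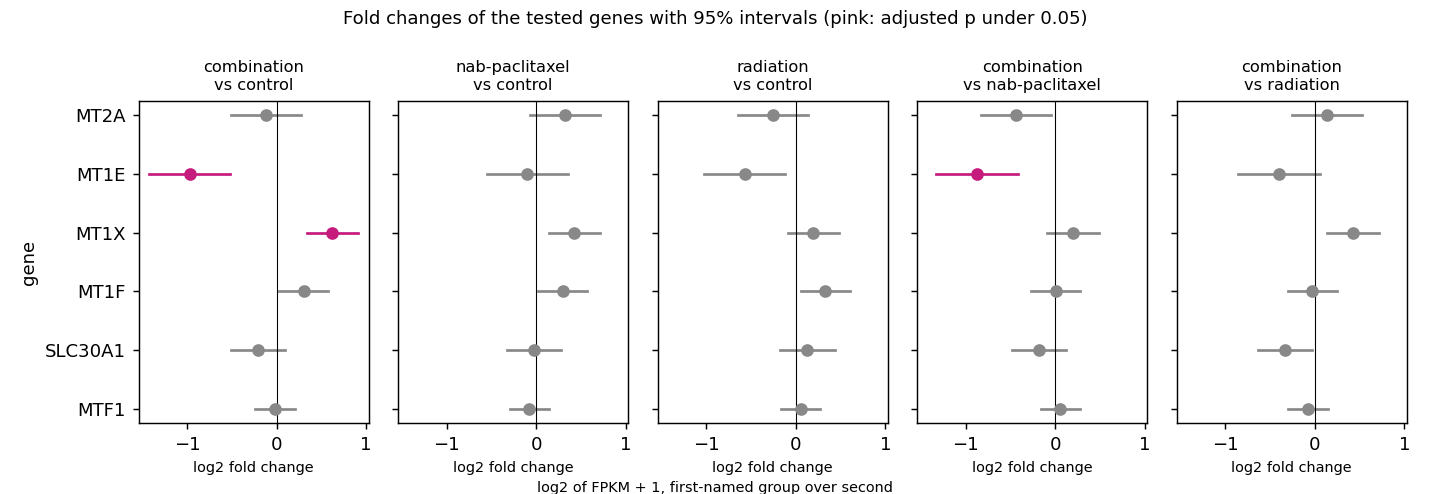
Log2 fold changes (x axes, log2 of FPKM + 1) of the 6 tested genes (y axis) in 5 comparisons, first-named group over second. Points are estimates, lines 95% intervals, and pink marks an adjusted p under 0.05. MT1E (-0.97) and MT1X (0.62) are pink in combination against control and MT1E (-0.87) in combination against nab-paclitaxel.

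Because fold changes of different members were opposed, the make-up of the metallothionein pool was described within each library, where the scaling of the library cancels. These ratios were chosen after the members' values were seen and carry no test. MT1X over MT1E was 0.215, 0.193 and 0.212 in the combination, 0.0818, 0.107 and 0.106 in nab-paclitaxel, 0.105, 0.116 and 0.125 in radiation, and 0.0607, 0.0647 and 0.0767 in control. The combination lay above all other libraries and control below all others. MT2A over MT1E was 3.67, 3.44 and 3.42 in the combination, 2.48, 2.61 and 2.71 in nab-paclitaxel, 2.44, 2.42 and 2.40 in radiation, and 1.75, 2.04 and 2.06 in control. Nab-paclitaxel 1, whose levels of MT2A and MT1E were the highest of the 12 libraries, held a ratio of 2.48 between them, below the other nab-paclitaxel libraries and above every radiation and control library. Around the group means MT2A and MT1E deviated together over the 12 libraries (r = 0.970), and so did MT1E and MT1X (r = 0.874), which share library and depth. Nab-paclitaxel 1 weighs heavily in both r values, which were not recomputed without it.

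**Figure D3:**
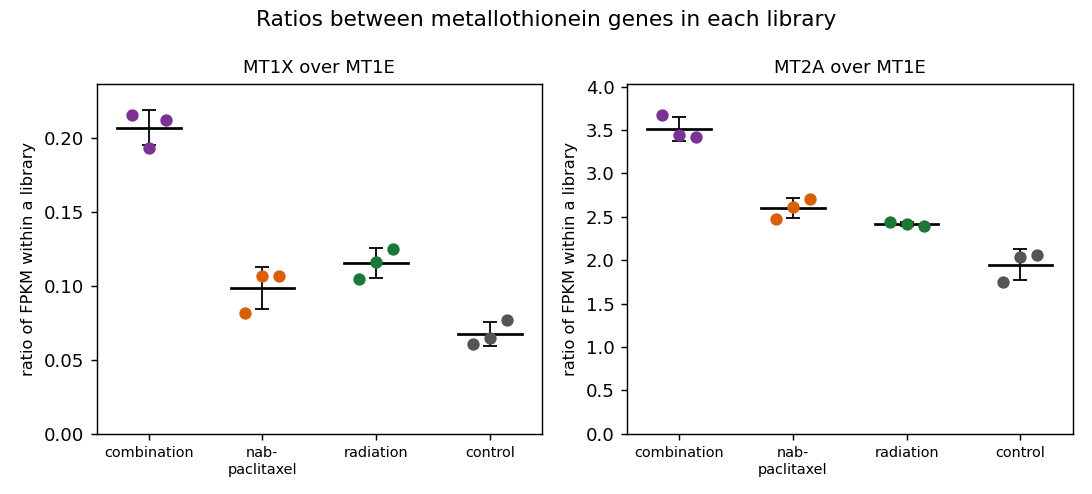
Ratio of FPKM within a library (y axes, from 0) of MT1X over MT1E and of MT2A over MT1E in the 3 libraries of combination, nab-paclitaxel, radiation and control (x axis). Points are libraries, wide lines means and bars SD (n = 3). MT1X over MT1E lay at 0.193 to 0.215 in the combination and at 0.0607 to 0.0767 in control.

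The share of recovered fragments held by the 6 metallothionein members does not depend on how fragments were split among them. Fragments could still go to copies outside the 6. That share was 0.0811% to 0.0914% in the combination, 0.0956% to 0.156% in nab-paclitaxel, 0.0850% to 0.0872% in radiation and 0.0896% to 0.110% in control. Their summed FPKM does depend on the split, because each gene is scaled by its own length (1052 bases for MT1E, 1773 for MT1X). The summed FPKM averaged 663 ± 50.6 FPKM in the combination, 985 ± 330 FPKM in nab-paclitaxel, 656 ± 14.8 FPKM in radiation and 834 ± 106 FPKM in control (SD, n = 3 each). On the log2 scale the combination differed from control by -0.33 (two-sided exact permutation p = 0.2) and radiation by -0.34 (exact permutation p = 0.1). The combination differed from radiation by 0.01 (exact permutation p = 0.9). From nab-paclitaxel, with nab-paclitaxel 1 included, it differed by -0.52 (exact permutation p = 0.1). Nab-paclitaxel differed from control by 0.20 (exact permutation p = 0.7), or by -0.06 without nab-paclitaxel 1. With 3 libraries against 3 the smallest p possible is 0.1, so none could pass 0.05. Without MT2A the sums differed by -0.78 in combination against control, by -0.05 in nab-paclitaxel and by -0.50 in radiation. MT1E made up 20.4% to 21.5% of the summed FPKM in the combination, 26.1% to 28.02% in nab-paclitaxel, 28.1% to 28.3% in radiation and 31.7% to 35.5% in control.

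**Figure D4:**
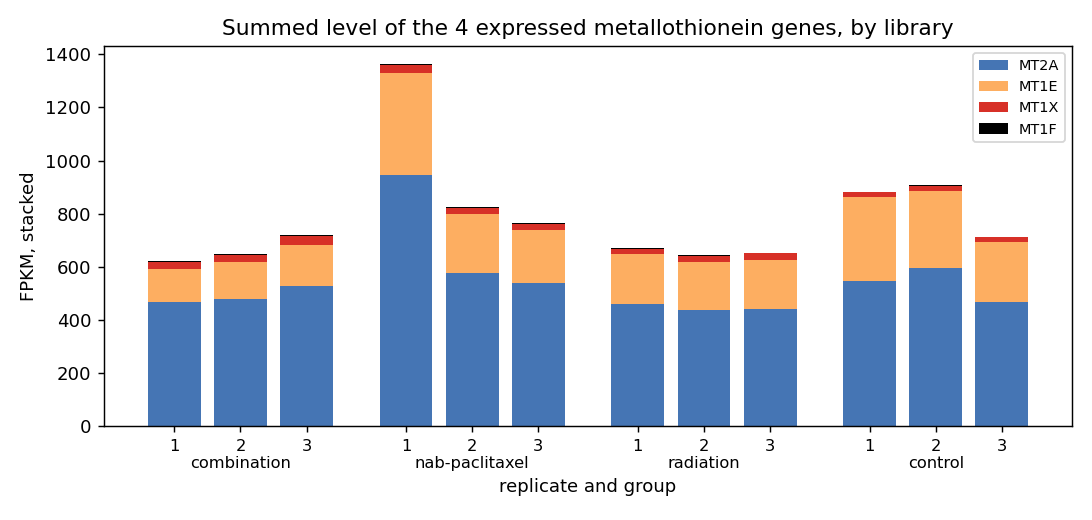
Summed FPKM (y axis, from 0) of MT2A, MT1E, MT1X and MT1F, stacked in each library of combination, nab-paclitaxel, radiation and control (x axis). Nab-paclitaxel 1 is the tallest bar, and the MT1E band is thinnest in the combination, where it holds 20.4% to 21.5% of the summed level.

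The other genes of the family added little. Of 14 other metallothionein genes and pseudogenes, MT1A, MT1H, MT3 and MT4 were listed at 0 in all libraries, and MT1DP and MT1XP1 passed the level of 1 FPKM. Limma called neither in any of the 5 comparisons of 2 groups, with 2 of 10 tests at an unadjusted p under 0.05, both of MT1XP1, and voom called neither. The pseudogene MT2P1, which lay outside the list, averaged 3.20 FPKM on 3 to 20 fragments per library and shares 50-base windows with MT2A.

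SLC30A1, the plasma-membrane zinc exporter that MTF1 is known to induce, had 14.7, 17.8 and 14.0 FPKM in the combination, 21.5, 15.7 and 16.2 FPKM in nab-paclitaxel, 19.6, 19.5 and 20.04 FPKM in radiation, and 15.7, 21.4 and 17.0 FPKM in control. The combination lay below radiation without overlap, and control overlapped every group. It did not pass in any of the 5 comparisons of 2 groups, though it passed in combination against radiation after quantile normalization (-0.46, adjusted p 0.0490). Its log2 fold changes were -0.20 ± 0.14 in combination against control (limma adjusted p = 0.314) and -0.33 ± 0.14 in combination against radiation (limma adjusted p = 0.158). Its highest level in each of the combination, nab-paclitaxel and control groups was in combination 2, nab-paclitaxel 1 and control 2, the 3 libraries that deviate together. Without them SLC30A1 passed in combination against radiation at -0.43 with a limma adjusted p of 0.00128 and in combination against control at -0.18 with 0.0328. These libraries were picked from the same data, and leaving out each group's highest SLC30A1 level narrows the spread of this gene. Calls among all 13609 genes rose too, from 1055 to 4128 in combination against radiation and from 3111 to 5049 in combination against control. The SLC30A1 calls in that fit are therefore uncertain.

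MTF1, the zinc-sensing transcription factor, had 4.56 to 5.08 FPKM in the combination, 3.89 to 5.15 FPKM in nab-paclitaxel, 4.91 to 5.48 FPKM in radiation and 4.45 to 5.26 FPKM in control. All groups overlapped. In combination against control its log2 fold change was -0.02 ± 0.10 with a 95% interval of -0.24 to 0.20. Nab-paclitaxel 1, which held the highest MT2A and MT1E, held the lowest MTF1. A pseudogene on the opposite strand within MTF1, AL929472.4, averaged 0.0211 FPKM. The levels of MTF1 mRNA say nothing of the protein's activity.

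Among the genes that bring zinc into the cytosol, SLC39A10 rose and SLC39A14 fell with the combined treatment. Of 14 listed importers 10 were tested, and in combination against control these 2 passed while 8 did not, a share near the 22.9% of all genes that passed there. SLC39A10, a plasma-membrane importer, had 12.3, 16.0 and 11.5 FPKM in the combination, 9.34, 7.64 and 8.31 FPKM in nab-paclitaxel, 6.85, 6.51 and 7.98 FPKM in radiation, and 4.70, 6.70 and 4.89 FPKM in control. The combination lay above all other libraries. The log2 fold change was 1.15 ± 0.14 against control (limma adjusted p = 0.000368) and 0.81 ± 0.14 against radiation (limma adjusted p = 0.00940), and both calls were kept by all 23 alternatives. It also passed in nab-paclitaxel against control (adjusted p = 0.0361) and in combination against nab-paclitaxel (adjusted p = 0.0463), but only in 10 and 7 of the 23 alternatives, and leaving out control 1, control 3, combination 1, any radiation or any nab-paclitaxel library ended both calls (adjusted p up to 0.106 and 0.141). Leaving out combination 2 or 3 ended the second (adjusted p 0.150 and 0.0720).

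SLC39A14, an importer of zinc, iron and manganese, had 39.0, 40.3 and 41.2 FPKM in the combination, 51.4, 55.3 and 54.5 FPKM in nab-paclitaxel, 54.1, 54.0 and 56.0 FPKM in radiation, and 64.9, 66.6 and 64.7 FPKM in control. Combination lay below both single treatments and these below control, with no overlap at either step. The log2 fold change was -0.69 ± 0.07 against control and -0.44 ± 0.07 against radiation (limma adjusted p = 8.55e-05 and 0.00448), and both calls were kept by all 23 alternatives. The combination also passed below nab-paclitaxel, kept by 22 of the 23 alternatives. It also passed against control in radiation (-0.25 ± 0.07, adjusted p = 0.0436) and in nab-paclitaxel (-0.28 ± 0.07, adjusted p = 0.0260), in 5 and 14 of the 23 alternatives, and leaving out control 1, control 3, nab-paclitaxel 2 or any radiation library ended both calls (adjusted p up to 0.167 and 0.0619). Leaving out control 2, nab-paclitaxel 3 or any combination library ended the first. SLC39A11 passed in combination against radiation, at 11.7 FPKM in the combination against 9.003 FPKM in radiation, but not when any radiation library, control 3, nab-paclitaxel 2 or 3, or combination 1 or 3 was left out (highest adjusted p 0.147). Of 9 exporter genes other than SLC30A1, 6 were tested and limma called 0 in the 5 comparisons of 2 groups, with 3 of 30 tests at an unadjusted p under 0.05, all of SLC30A5, and voom called 0. SLC30A5, which loads the secretory pathway with zinc, averaged 14.0 FPKM in the combination and 11.1 FPKM in control. SLC30A9 averaged 12.6 FPKM in the combination and 12.5 FPKM in control.

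**Figure D5:**
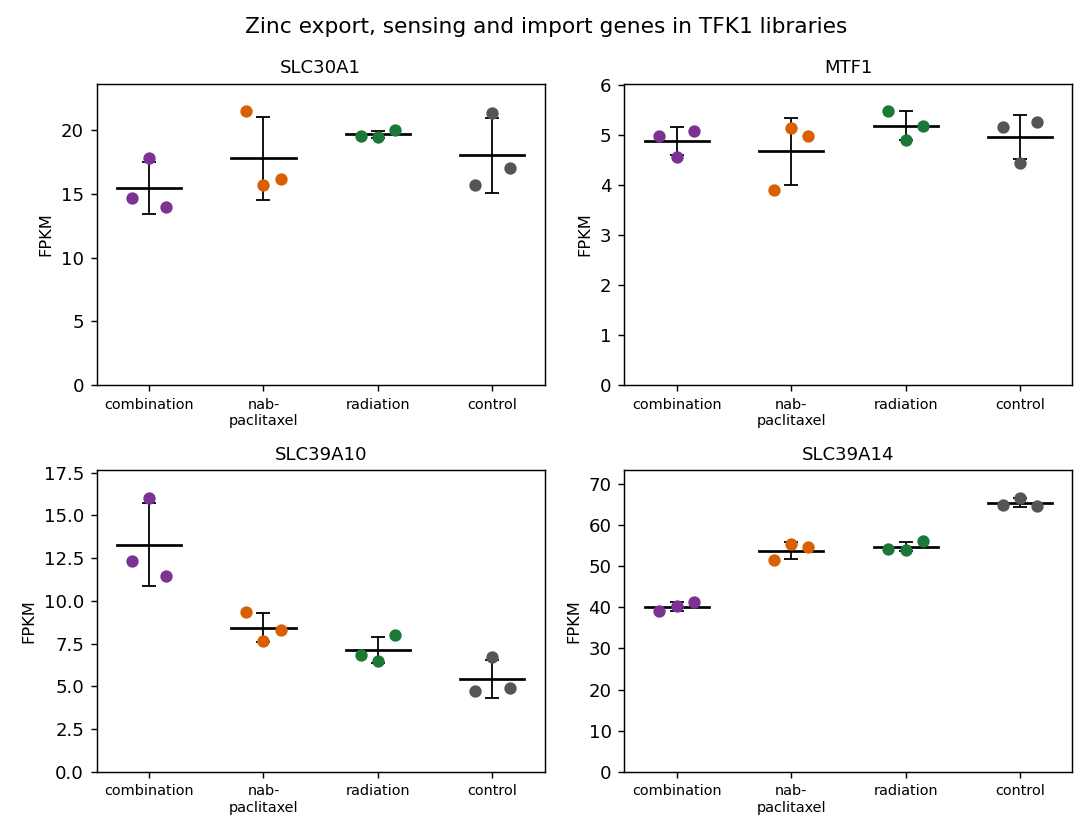
FPKM (y axes, each from 0) of the exporter SLC30A1, the sensor MTF1 and the importers SLC39A10 and SLC39A14 in the 3 libraries of combination, nab-paclitaxel, radiation and control (x axis). Points are libraries, wide lines means and bars SD (n = 3). SLC39A10 averaged 13.3 FPKM in the combination and 5.43 FPKM in control, and SLC39A14 averaged 40.2 FPKM in the combination and 65.4 FPKM in control.

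Genes tied to the other known inputs of metallothionein transcription were counted in combination against control, where 22.9% of all genes passed, and counts near that share are no result about a list. Of 10 tested copper-handling genes 3 rose in combination against control and 7 did not pass. They were the copper importer SLC31A1 (17.2 FPKM in the combination and 11.95 FPKM in control), the copper chaperone ATOX1 (9.88 FPKM in the combination and 5.64 FPKM in control) and the mitochondrial copper chaperone COX17, whose call was lost when control 2 or 3, any radiation library, nab-paclitaxel 3, or combination 1 or 3 was left out (highest adjusted p 0.152). SLC31A1 also rose in nab-paclitaxel against control (15.9 FPKM in nab-paclitaxel), kept by 19 of the 23 alternatives. Of 11 metal- and oxidant-induced genes 1 rose and 2 fell in combination against control. The cystine importer subunit SLC7A11 fell to 14.1 FPKM in the combination, against 47.0 FPKM in control, a log2 fold change of -1.67 ± 0.18. SLC7A11 also fell against control in radiation (27.0 FPKM) and in nab-paclitaxel (25.5 FPKM), kept by 15 and 20 of the 23 alternatives. The combination passed below radiation and below nab-paclitaxel too, kept by 18 and 13 of them. HSPA1B, a heat-shock gene with a near-identical copy in HSPA1A, rose to 20.3 FPKM in the combination, against 13.2 FPKM in control. HSPA1B also rose against control in radiation (19.2 FPKM) and in nab-paclitaxel (21.3 FPKM), kept by 14 and 22 of the 23 alternatives. NQO1, a quinone reductase, fell to 105 FPKM in the combination, against 127 FPKM in control, in a call lost with the replicate block and when any control, radiation or combination library or nab-paclitaxel 3 was left out (highest adjusted p 0.117). NQO1 also fell in radiation alone, at 72.7 FPKM against 127 FPKM in control, and there all 23 alternatives kept the call. In combination against radiation NQO1 rose, at 105 FPKM in the combination against 72.7 FPKM in radiation, under all 23 alternatives. In combination against nab-paclitaxel NQO1 fell, at 105 FPKM in the combination against 163 FPKM in nab-paclitaxel, kept by 22 of the 23 alternatives. In nab-paclitaxel against control NQO1 rose, at 163 FPKM in nab-paclitaxel against 127 FPKM in control (0.35 ± 0.09, limma adjusted p = 0.0338), and 11 of the 23 alternatives kept that call. Leaving out any control or radiation library, combination 1 or combination 3 ended it (adjusted p up to 0.0997). TXNRD1, a thioredoxin reductase, passed in radiation against control (92.3 FPKM in radiation and 110.3 FPKM in control, adjusted p = 0.0472), but in 4 of the 23 alternatives, and leaving out any library other than nab-paclitaxel 1 ended the call (adjusted p up to 0.196). Of 7 tested glucocorticoid-induced genes DUSP1, a phosphatase, and SGK1, a kinase, rose in combination against control while TSC22D3 fell to 6.71 FPKM, against 11.4 FPKM in control. DUSP1 averaged 15.1 FPKM in the combination and 10.6 FPKM in control. It also rose against control in radiation (14.6 FPKM) and in nab-paclitaxel (14.5 FPKM), kept by 23 and 22 of the 23 alternatives. TSC22D3 also fell against control in radiation (7.82 FPKM) and in nab-paclitaxel (8.69 FPKM), kept by 23 and 21 of them. The SGK1 call was lost with the replicate block and without control 3, combination 2 or combination 3 (adjusted p up to 0.0802), with only the groups compared (0.0901), and without control 2, nab-paclitaxel 1 and combination 2 together (0.0613). FKBP5, a chaperone of the glucocorticoid receptor, was at 8.24 FPKM in radiation against 10.03 FPKM in control, a fall that leaving out any library other than nab-paclitaxel 1 ended (highest adjusted p 0.189), and at 10.5 FPKM in the combination against 8.24 FPKM in radiation, a rise lost without radiation 1, radiation 2 or combination 3 (highest adjusted p 0.0840).

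Likeness was measured over the 12 libraries on log2(FPKM + 1). Among 11088 genes the pattern most like the mean of the 4 tested metallothioneins was that of CREM (Pearson r = 0.970), followed by NUTF2 (r = 0.963), RBM22 and IFT52. These 4 had their highest level in nab-paclitaxel 1, and without that library CREM had r = 0.874 and IFT52 r = 0.624 over the other 11. The pattern most like SLC30A1 was that of CXADR (r = 0.961, and 0.960 without nab-paclitaxel 1), followed by SLC25A46, DNAL1, CSGALNACT2 and PDE7A at r = 0.926 to 0.943. These libraries share depth and the deviations described above, and likeness in level is only a description.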

How the data were processed

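Messenger RNA of TFK1 cells was sequenced in 12 libraries made with a SMARTer kit, and the submitters' processing notes name the build hg38. For the aligner, the counting tool and use of strand: not given in the sources used here. The authors deposited FPKM per gene, per the file headers. FPKM times gene length gave whole multiples of 1 step for 100% of values (within 0.05), so fragments could be recovered, and FPKM implied totals of 0.922 to 1.06 times each library's own. The radiation libraries were highest, at 1.04 to 1.06, and nab-paclitaxel 1 was lowest, at 0.922. A higher ratio lowers FPKM relative to scaling by recovered fragments, so this scaling is tied to the groups. Values were fitted as log2(FPKM + 1) by limma 3.58.1 (R 4.3.3) with trend, for genes averaging 1 FPKM or more, with 8 residual and 3.39 prior degrees of freedom, two-sided and Benjamini-Hochberg adjusted within each comparison. A fold change on this scale understates the change of low genes. Summed levels were compared by an exact permutation test. Groups came from the labels.

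Same-numbered control and combination libraries deviated together (r = 0.233, 0.543 and 0.172), while no label links a number to a batch or day, so this pairing comes from the data alone. Fits with the replicate number as a block are given where they changed a call there. Alternatives were a pseudocount of 0.1, no filter or a mean of at least 5 FPKM, TPM, quantile normalization, no trend, protein-coding genes only, the replicate block, only the groups compared, limma's voom on recovered fragments, each library left out, and control 2, nab-paclitaxel 1 and combination 2 left out together. Named were all members and each gene of the zinc, copper, metal and oxidant, and glucocorticoid lists that passed in a comparison, otherwise the 2 highest, with the 5 genes most like each pattern. A few genes that these rules and lists pick are not reported here. The members and lists were chosen with earlier results of these data known. Promoters came from RefSeq. Tables and figures used Python 3.11.15.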

Additional observations from a re-analysis of the deposited data

How the results depend on the processing

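In combination against control all 23 alternatives kept the fall of MT1E (adjusted p 0.000364 to 0.0301) and the rise of MT1X (adjusted p 0.00103 to 0.0325). No called member changed sign in any of the 810 values recomputed, and 37 values of uncalled members did. Of the counts of called members (0 in radiation against control, 0 in nab-paclitaxel against control, 0 in combination against radiation, 1 in combination against nab-paclitaxel), several moved, and apart from the smaller fits the cause was not tested. In combination against nab-paclitaxel the count was 0 with no filter (MT1E adjusted p 0.133), with the replicate block (0.0597) and with only the groups compared (0.161). In combination against radiation it was 2 after quantile normalization and 3 with only the groups compared, and in nab-paclitaxel against control it was 1 with TPM. With only the groups compared, 2502 of all 13609 genes were called in combination against radiation instead of 1055. Without control 2, nab-paclitaxel 1 and combination 2 it was 2 in radiation against control, 2 in combination against radiation and 2 in combination against nab-paclitaxel. Calls among all 13609 genes rose in that fit as well, from 807, 1055 and 533 to 2947, 4128 and 1301 in these comparisons. These gains are therefore not particular to the members. Leaving out each library gave 0 to 1 calls in radiation against control, 0 to 1 in nab-paclitaxel against control, 0 to 2 in combination against radiation and 0 to 1 in combination against nab-paclitaxel. The replicate block, fitted over all 12 libraries, thus ended the MT1E call in combination against nab-paclitaxel and added MT1F in combination against control (adjusted p 0.0428). It changed no other call of a member. In the other comparisons same-numbered libraries did not all deviate together, so a block there joins libraries that share only a number. The share of all genes called also moved: 807 genes in radiation against control became 320 to 2947 over the alternatives, 1200 in nab-paclitaxel against control became 8 to 1836, 3111 in combination against control became 1964 to 5049, 1055 in combination against radiation became 218 to 4128, 533 in combination against nab-paclitaxel became 93 to 1301, and 0 in the interaction became 0 to 5. Quantile normalization put the share of rises among calls at 48.3% instead of 61.3% in nab-paclitaxel against control and at 41.8% instead of 31.0% in combination against nab-paclitaxel. Depth limits MT1F, MT1G and MT1M.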
